A study of Mus musculus with 8 samples.

Results

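Most mitochondrial proteins are encoded in the nucleus, made in the cytosol and carried into the organelle by dedicated machinery, and the RNAs of that machinery were examined in muscle of mice homozygous for a mutant Pus1 gene. The genes were chosen by symbol: every gene whose name starts with Timm or Tomm followed by a number, plus Dnajc19, Pam16, Grpel1, Grpel2, Samm50, Mtx1, Mtx2, Pmpca, Pmpcb, Gfer and Chchd4. The array carries 36 of them among 20972 named genes, and 34 of the 36 were among the 11453 genes bright enough to test. The rule uses names, not measured values, but the genes were chosen with earlier results of these data known. Pus1 encodes pseudouridine synthase 1, an enzyme that modifies uridines of tRNAs in the cytosol and in mitochondria, and the design sets mutant against wild type red, slow skeletal muscle. Total RNA was taken from red gastrocnemius, the oxidative part of this calf muscle, of 4 homozygous mutant and 4 wild type mice aged 14 to 16 weeks, labelled as biological replicates. Both genotypes are given as C57BL/6J after 5 generations of backcrossing, with no other allele and no treatment. Which part of Pus1 is altered is not given in the labels. For each sample, 100 ng was labelled with 1 of the dyes Cy3 and Cy5, and each of 4 Agilent 2-colour arrays held 1 mutant and 1 wild type of the same individual number and sex. Mutants 1 and 2 were male and mutants 3 and 4 female, as were the wild types of the same numbers. The mutant carried Cy5 on arrays 1 and 3 and Cy3 on arrays 2 and 4, and with all arrays on 1 slide there was no slide batch to test.

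Precursor proteins first meet receptors of the TOM complex on the outer membrane and pass through its pore. From there they take different routes: beta-barrel proteins go to the SAM complex, cysteine-rich proteins are trapped between the membranes by the MIA pathway, carriers are escorted by small TIM chaperones to the TIM22 complex, and proteins with a presequence enter the matrix through the TIM23 channel, pulled by an ATP-driven motor, before a peptidase removes the presequence. Muscle depends on this traffic for its respiratory chain, most subunits of which are imported, while a small set is made inside the organelle with mitochondrial tRNAs.

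Ratios are log2 of mutant over wild type on an array, so 0 is no difference and positive values are higher in the mutant. Levels are the log2 brightness of a gene's probe in one sample after normalization, and they are compared between samples for 1 gene, never between genes. Pus1 itself had levels of 6.74, 6.88, 6.60 and 7.12 in mutants 1 to 4, against 8.69, 8.42, 8.72 and 9.13 in wild types 1 to 4. All mutants lay below all wild types. The signal was well above background in 0 of 4 mutants and 4 of 4 wild types, so the mutant level is only a bound. The bound took, for each mutant, the larger of its Pus1 level and the lowest level of any probe well above background in that sample. It is not a detection limit of the Pus1 probe itself. By that bound the transcript was at least 3.57-fold lower in the mutants. Pus1 entered the test through the wild types alone, and its fitted ratio of -1.90 (limma adjusted p = 0.0454) is taken against a mutant signal below background. With any 1 of the 4 replicates left out, Pus1 missed the threshold (limma adjusted p 0.144 to 0.868). The share of probes well above background ran from 39.8% to 42.5% in the mutants and from 39.7% to 47.3% in the wild types. Of the marker lists, all 7 slow fibre genes and all 7 fast fibre genes were above background in all 8 samples. The fast fibre genes had median ratios of 0.96, -0.72, 0.73 and -0.74 on arrays 1 to 4, positive where the mutant carried Cy5 and negative where it carried Cy3, and their fitted median was 0.093. The slow fibre genes had medians of 0.29, -0.11, 0.50 and 0.47 on arrays 1 to 4 and a fitted median of 0.34. Their brightness per sample, summed over the genes on a linear scale, ran from 496459 to 881783 in mutants and from 416343 to 662877 in wild types. The 3 erythroid genes had a median of 0.88, with medians of -0.28, 0.41, 1.54 and 1.66 on arrays 1 to 4. Their linear sums were 25016 to 287780 in mutants against 25832 to 82539 in wild types. Endothelial and fibroblast markers were above background throughout, with array medians from -0.21 to 0.14 and from -0.42 to 0.21, while Lep of the adipocyte list and Cd163 of the macrophage list were above background in no sample. The 2 adipocyte genes tested had medians of -0.20, 0.63, -0.63 and 1.74 on arrays 1 to 4, highest on array 4, and the 1 macrophage gene tested had ratios of -0.43, -0.32, 0.24 and 0.091. None of these lists had a gene past the limma threshold. In bulk RNA, fewer cells of a type and less RNA per cell cannot be told apart, and the part of blood or fibre type in the values below was not tested.

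No gene of the import machinery passed the test. Of 34 genes, 0 had an adjusted p under 0.05 in the limma fit across all genes, where 0.0175% of genes were called, and their adjusted p ran from 0.707 to 0.992. With the brightest probe per gene, 1 gene had an unadjusted p under 0.05 in limma, Tomm20. Of all genes, 5.87% did in either direction and 2.46% in the lower direction. Fitted log2 ratios were positive for 20 import genes and negative for 14, beside 6207 positive and 5246 negative of the 11453 genes tested. The median of the import genes was 0.015, beside 0.012 over all genes tested. Their ratios ran from -0.24 for Tomm20 to 0.094 for Mtx2. The median size of the ratio without its sign was 0.040 in the import genes and 0.074 over all genes, with median standard errors of 0.071 and 0.081.

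**Figure D1:**
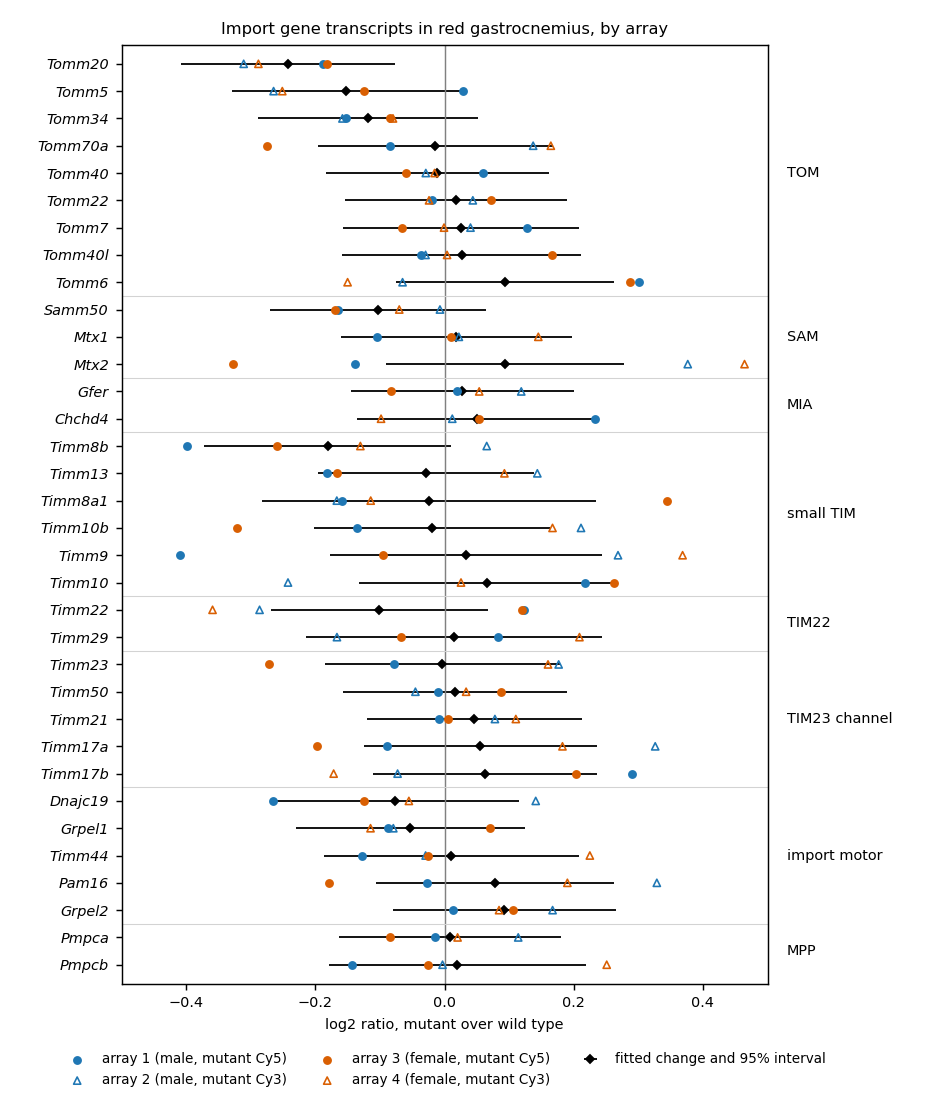
Log2 ratio of mutant over wild type (horizontal axis) for the 34 import genes tested, grouped by role down the page. Points are the 4 arrays, marked by sex and dye, and the black diamond and line are the fitted value with its 95% interval: the interval of Tomm20 alone leaves out 0.

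The intervals, gene by gene, bound the size of a difference for a gene's brightest probe over all 4 arrays. They do not cover second probes, of which that of Dnajc19 was fitted at -0.42 (SE 0.21). The 95% intervals of 33 of the 34 genes held 0, that of Tomm20 being the exception, and all 34 lay within 1.5-fold in either direction. The lowest bound belonged to Tomm20, at -0.41 or 0.753-fold, and the highest to Mtx2, at 0.28 or 1.21-fold. Standard errors ran from 0.065 for Tomm20 to 0.10 for Timm8a1. The probes of all 34 genes were well above background in all 8 samples and none was saturated in any, so no value rests on a floor or a ceiling.

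The RefSeq promoter table (assembly GRCm38.p6, 250 bases before to 50 after the start) has 32 of the 36 genes, and 3 windows are shown: that of Tomm20, the gene with the smallest p, that of Timm8b, next in p and with letters of 3 different motifs, and that of Timm23, the inner membrane channel, whose fitted ratio was nearest to 0. Capitals mark the motif letters found on either strand. The Tomm20 window is chr8:126945872-126946171 on the minus strand, the Timm8b window chr9:50603651-50603950 on the plus strand and the Timm23 window chr14:32201842-32202141 on the minus strand.
Tomm20: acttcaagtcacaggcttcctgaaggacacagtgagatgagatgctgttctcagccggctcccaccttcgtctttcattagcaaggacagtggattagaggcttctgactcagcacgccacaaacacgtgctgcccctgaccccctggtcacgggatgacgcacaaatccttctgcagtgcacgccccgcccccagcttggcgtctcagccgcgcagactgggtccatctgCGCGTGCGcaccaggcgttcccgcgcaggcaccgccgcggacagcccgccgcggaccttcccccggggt
Timm8b: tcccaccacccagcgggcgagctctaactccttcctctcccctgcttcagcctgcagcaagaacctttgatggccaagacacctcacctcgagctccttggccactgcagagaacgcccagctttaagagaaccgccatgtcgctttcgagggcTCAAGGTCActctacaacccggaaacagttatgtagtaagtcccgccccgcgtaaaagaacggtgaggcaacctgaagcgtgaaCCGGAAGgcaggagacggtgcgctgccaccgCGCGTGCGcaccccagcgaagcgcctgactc
Timm23: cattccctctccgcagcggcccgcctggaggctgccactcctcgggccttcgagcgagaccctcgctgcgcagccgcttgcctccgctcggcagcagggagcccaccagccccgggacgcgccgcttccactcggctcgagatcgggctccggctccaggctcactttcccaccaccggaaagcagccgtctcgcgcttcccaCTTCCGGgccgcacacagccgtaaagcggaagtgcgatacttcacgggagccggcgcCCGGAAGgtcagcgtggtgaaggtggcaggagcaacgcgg

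The windows were searched on both strands, by exact letters, for 6 motifs of factors known from nuclear genes of mitochondria or stress responses, with 0 overlaps between different motifs in these genes: ETS (CCGGAAG), NRF1 (CGCNTGCG), YY1 (AAGATGGCG), ERR (TCAAGGTCA), ATF4 (TGATGNAAN) and CREB (TGACGTCA). In the Tomm20 window, NRF1 letters run from -19 to -12 relative to the start. The Timm8b window holds ERR letters at -96 to -88, ETS letters at -12 to -6 and NRF1 letters at 19 to 26, and the Timm23 window holds ETS letters at -47 to -41 and 10 to 16. ETS letters stood in 14 of 32 import genes (43.8%), beside 19.7% of the 9137 tested genes in the table and 9.93% of all 27025. The 32 include Timm8a2, 1 of the 14, which was too dim to test. NRF1 letters stood in 7 (21.9%), beside 19.1% and 9.22%. YY1 letters were in 2 genes, Mtx1 and Timm50 (6.25%, beside 3.66% and 1.64%), and ERR letters in 1, Timm8b (3.12%, beside 0.339% and 0.466%). No window had ATF4 letters (2.64% of tested and 4.5% of all genes) or CREB letters (3.58% and 2.03%). The windows had a median GC content of 59.2% in import genes, 60.3% in tested genes and 52.7% in all. The tested import genes with ETS letters lay on both sides of 0, from Timm8b at -0.18 to Mtx2 at 0.094. A match describes these letters only, and no binding was measured.

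**Figure D2:**
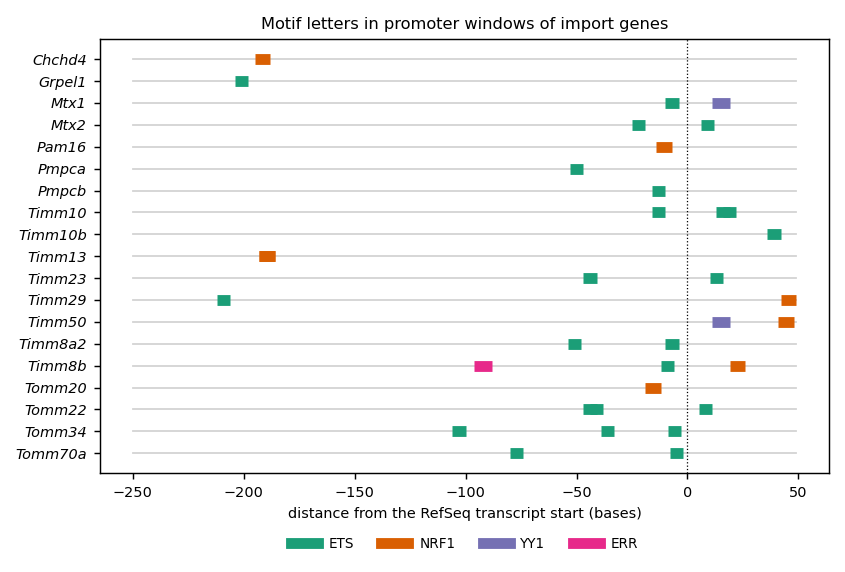
Position of motif letters in the promoter windows of the import genes that hold any, in bases from the start (horizontal axis), 1 gene per row. Marks are coloured by motif, and ETS letters, in 14 genes, are the most frequent.

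In the TOM complex, by the brightest probe of each gene, the receptor Tomm20 stood lowest and the pore and the other receptors lay near 0. The median over the 9 genes grouped here, which include the cytosolic Tomm34, was -0.011, with 4 positive and 5 negative. Tomm20, the receptor that binds presequences, had levels of 12.60, 12.33, 12.54 and 12.52 in mutants 1 to 4, against 12.79, 12.64, 12.72 and 12.80 in wild types 1 to 4. All 4 mutants lay below all 4 wild types, the only import gene of which this held, while the groups did not overlap for 1.21% of all genes. Its ratios were -0.19, -0.31, -0.18 and -0.29 on arrays 1 to 4, negative in both sexes and both dye orientations. The fitted value was -0.24 (SE 0.065, 0.845-fold, 95% interval -0.41 to -0.076). In limma its unadjusted p was 0.0129 and its adjusted p 0.707, and its p was number 165 from the smallest among all genes. A second Tomm20 probe had levels of 11.90, 11.86, 12.08 and 11.71 in mutants 1 to 4, against 12.11, 12.03, 12.29 and 11.83 in wild types 1 to 4. Each of these mutants was below the wild type on its own array, although the groups overlapped. That probe was fitted at -0.18 (SE 0.066), with a limma adjusted p over all probes of 0.727.

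The other receptors had fitted ratios near 0. Tomm22, the central receptor that also organises the pore, was fitted at 0.018 (SE 0.068). Tomm70a, the receptor for carriers and for the cytosolic chaperones that deliver them, had levels of 10.53, 10.73, 10.78 and 11.09 in mutants 1 to 4, against 10.62, 10.59, 11.06 and 10.92 in wild types 1 to 4. The groups overlapped almost fully, and the fit gave -0.015 (SE 0.072). Tomm40, the beta-barrel that forms the pore, had levels of 12.28, 12.17, 12.22 and 12.28 in mutants 1 to 4, against 12.22, 12.20, 12.28 and 12.30 in wild types 1 to 4. Its values in the 8 samples were close together, and the fit gave -0.011 (SE 0.068), with an interval of -0.18 to 0.16. A second Tomm40 probe was fitted at -0.15. Tomm40l, a relative of Tomm40, was at 0.026 (SE 0.073).

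Of the small subunits that hold the TOM complex together, Tomm5 and Tomm6 had fitted ratios of opposite sign. Tomm5 had levels of 14.18, 13.86, 14.02 and 13.90 in mutants 1 to 4, against 14.15, 14.12, 14.14 and 14.15 in wild types 1 to 4. The wild types were nearly alike (SD 0.013) and the mutants more spread (SD 0.14), with 3 mutants below all wild types and mutant 1 above them. The fit gave -0.15 (SE 0.070), and a second probe gave -0.12. Tomm6 had levels of 13.60, 13.64, 13.59 and 13.34 in mutants 1 to 4, against 13.30, 13.71, 13.30 and 13.49 in wild types 1 to 4. Here mutants 1 and 3 lay above their wild types and mutants 2 and 4 below theirs, in step with the dye, and the fit gave 0.093 (SE 0.067). Tomm7 was at 0.025 (SE 0.072). Tomm34, a cytosolic co-chaperone of Hsp70 and Hsp90, had levels of 10.73, 10.69, 10.79 and 10.85 in mutants 1 to 4, against 10.88, 10.85, 10.87 and 10.93 in wild types 1 to 4. Every mutant was below the wild type on its array, yet mutant 4 lay above wild type 2, so the groups overlapped. Its fitted value was -0.12 (SE 0.067). A single direction on 4 of 4 arrays was seen in 4 import genes, Tomm20, Tomm34 and Samm50 with negative ratios and Grpel2 with positive ones, and in 10.4% of all genes.

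In the SAM complex, which folds beta-barrels into the outer membrane, 3 genes had a median of 0.018. Samm50, its barrel-shaped core, had levels of 12.80, 13.10, 12.95 and 12.84 in mutants 1 to 4, against 12.97, 13.11, 13.12 and 12.91 in wild types 1 to 4. Mutants were lower on each array, by the least on array 2 (-0.0072), and the groups overlapped. The fit gave -0.10 (SE 0.066), with an interval of -0.27 to 0.065. Mtx2, a metaxin that partners Samm50, had levels of 10.71, 11.16, 10.62 and 10.98 in mutants 1 to 4, against 10.85, 10.78, 10.95 and 10.51 in wild types 1 to 4. Its ratios were -0.14, 0.38, -0.33 and 0.46 on arrays 1 to 4, negative where the mutant carried Cy5 and positive where it carried Cy3. Its dye term of -0.33 was the largest in size among the import genes, beside a genotype term of 0.094 (SE 0.073). Mtx1, the other metaxin, was at 0.018 (SE 0.070).

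The MIA pathway oxidises cysteine-rich proteins between the membranes, and its 2 genes were both positive, with a median of 0.039. Chchd4, the oxidoreductase that traps these proteins, had levels of 11.09, 10.65, 10.87 and 10.81 in mutants 1 to 4, against 10.85, 10.64, 10.81 and 10.91 in wild types 1 to 4. Mutant 1 was the highest of the 8 and wild type 2 the lowest, just below mutant 2, and the fit gave 0.050 (SE 0.073). Gfer, which reoxidises Chchd4, was at 0.027 (SE 0.068).

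Among the small TIM chaperones, by the brightest probe of each gene, Timm8b stood lowest and the rest were near 0. The 6 genes had a median of -0.022, with 2 positive and 4 negative. Timm8b, of the Tim8 branch of these chaperones, had levels of 14.72, 14.74, 14.80 and 14.94 in mutants 1 to 4, against 15.12, 14.68, 15.06 and 15.07 in wild types 1 to 4. Wild type 2, at 14.68, lay below all mutants, while the other 3 wild types lay above all mutants. The fit gave -0.18 (SE 0.075) with a limma p of 0.0588 and an adjusted p of 0.707. Timm13, with which the Tim8 proteins pair, was at -0.028 (SE 0.066). Timm8a1, whose human counterpart is mutated in a deafness and dystonia syndrome, was at -0.024 (SE 0.10), the largest error of the 34. Timm9 and Timm10 together form the main carrier chaperone and were at 0.033 (SE 0.083) and 0.065 (SE 0.078). Timm10b, which docks the chaperone on TIM22, was at -0.020 (SE 0.072), with ratios of -0.14, 0.21, -0.32 and 0.17 on arrays 1 to 4 that changed sign with the dye. A second Timm10b probe had ratios of -0.17, -0.20, -0.23 and -0.22 on arrays 1 to 4 and was fitted at -0.21. In the limma fit over all probes, its unadjusted p was 0.0279 and its adjusted p 0.727. Timm8a2, a relative of Timm8a1, was not tested: it was well above background in 0 of 4 mutants and 2 of 4 wild types. Its levels were 6.83, 7.00, 6.72 and 6.25 in mutants 1 to 4, against 7.32, 8.28, 6.55 and 6.46 in wild types 1 to 4. Tomm20l, a relative of Tomm20, was well above background in 0 of 8 samples and was not tested either.

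In the TIM22 complex, Timm22, which inserts carriers into the inner membrane, had levels of 11.14, 11.30, 11.56 and 11.43 in mutants 1 to 4, against 11.02, 11.58, 11.44 and 11.79 in wild types 1 to 4. The groups overlapped, with wild type 1 the lowest and wild type 4 the highest of the 8. Its ratios were 0.12, -0.29, 0.12 and -0.36 on arrays 1 to 4, positive where the mutant carried Cy5 and negative where it carried Cy3, and the fit gave -0.10 (SE 0.066). Timm29, known in human cells as a stabiliser of TIM22, was at 0.015 (SE 0.090).

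The 5 genes of the TIM23 channel had a median of 0.046, with 4 positive and 1 negative. Timm23, the channel protein, had levels of 15.07, 15.21, 15.05 and 15.07 in mutants 1 to 4, against 15.15, 15.03, 15.32 and 14.91 in wild types 1 to 4. Wild types 3 and 4 were the highest and lowest of the 8, with all mutants between them, and the fitted ratio was -0.0034 (SE 0.072), with an interval of -0.19 to 0.18. Timm17a, a partner of Timm23 in the channel, had levels of 14.65, 14.75, 14.62 and 14.76 in mutants 1 to 4, against 14.74, 14.43, 14.81 and 14.58 in wild types 1 to 4. The groups overlapped, and the fit gave 0.055 (SE 0.071). Timm17b, its relative, had levels of 12.74, 12.71, 12.75 and 12.89 in mutants 1 to 4, against 12.45, 12.78, 12.55 and 13.06 in wild types 1 to 4. The wild types spanned a wider range than the mutants and held both extremes, and the fit gave 0.062 (SE 0.068). Timm50, the receptor that hands presequences to the channel, was at 0.016 (SE 0.068), and Timm21, which in yeast links the channel to the TOM complex, was at 0.046 (SE 0.066).

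The import motor pulls precursors into the matrix with a mitochondrial Hsp70, and its 5 genes had a median of 0.010. Timm44, which tethers the Hsp70 to the channel, had levels of 12.63, 12.79, 12.69 and 12.73 in mutants 1 to 4, against 12.76, 12.81, 12.72 and 12.50 in wild types 1 to 4. Wild types 2 and 4 were the highest and lowest of the 8, and the fit gave 0.010 (SE 0.078). Dnajc19, a J-domain protein of the motor, had levels of 12.11, 12.24, 12.32 and 12.17 in mutants 1 to 4, against 12.38, 12.10, 12.44 and 12.23 in wild types 1 to 4. The groups overlapped, with 3 of 4 ratios negative, and the fit gave -0.076 (SE 0.075). Pam16, the J-like partner that regulates it, had levels of 14.79, 14.68, 14.66 and 14.84 in mutants 1 to 4, against 14.81, 14.35, 14.84 and 14.65 in wild types 1 to 4. Wild type 2 was the lowest of the 8 samples and the fit gave 0.078 (SE 0.073). Grpel2, a nucleotide exchange factor for the Hsp70, had levels of 8.31, 8.33, 8.40 and 8.46 in mutants 1 to 4, against 8.29, 8.16, 8.30 and 8.37 in wild types 1 to 4. Each mutant exceeded the wild type of its own array, by 0.013 on array 1 and by more on the others, while the groups overlapped, and the fit gave 0.093 (SE 0.068). Grpel1, the other exchange factor, was at -0.053 (SE 0.070). Its probe is printed in 10 spots, and the ratios had an SD between spots of 0.084, 0.092 and 0.052 on arrays 1 to 3 (10 spots each) and of 0.059 on array 4 (7 spots used), beside an SD of 0.083 between the 4 arrays.

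The matrix peptidase MPP cuts off presequences. Pmpcb, its catalytic subunit, had levels of 12.47, 12.35, 12.49 and 12.71 in mutants 1 to 4, against 12.61, 12.35, 12.52 and 12.46 in wild types 1 to 4. Mutant 4 was the highest and mutant 2 the lowest of the 8, and the fit gave 0.020 (SE 0.078). Pmpca, which recognises the substrate, was at 0.0084 (SE 0.068).

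**Figure D3:**
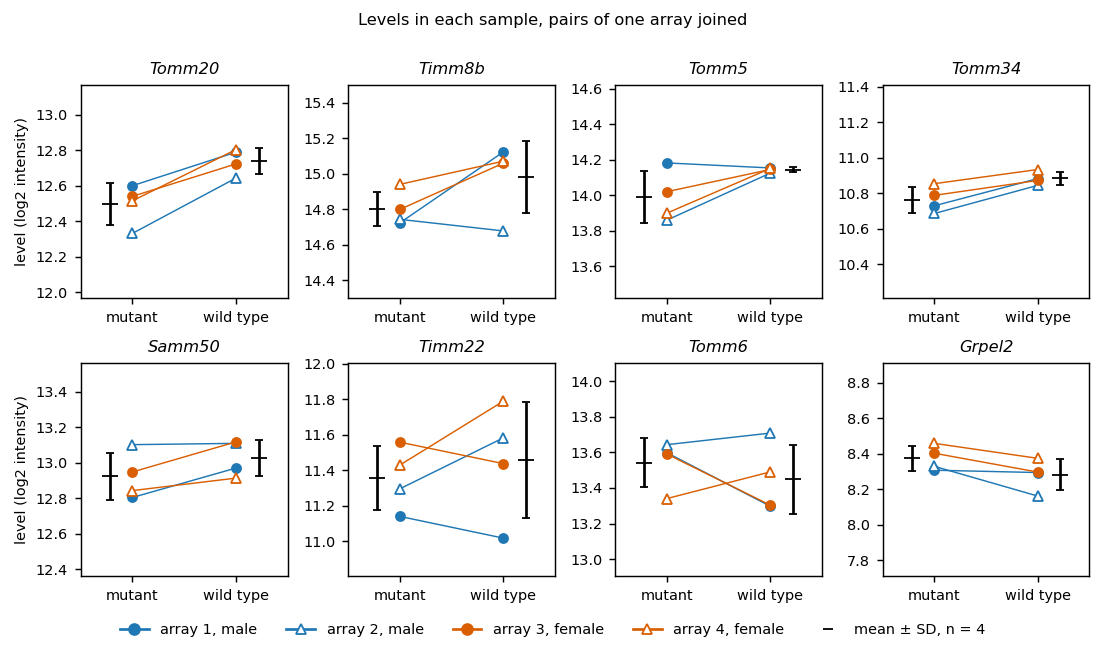
Log2 level (vertical axes) in each sample of the 8 import genes with the smallest p, mutants left of wild types. Each point is 1 sample, lines join the pair of an array, and the black marks are group means ± SD (n = 4): the groups separate for Tomm20 and overlap for the other genes drawn.

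The dye term exceeded the genotype term in most import genes. The dye term is the part of the log2 Cy5 over Cy3 ratio that keeps its sign whichever genotype carries Cy5. It was larger in size than the genotype term in 24 of 34 import genes (70.6%), beside 62.7% of all genes. The median size of the dye term was 0.099 in import genes and 0.12 over all genes. The median ratio of the import genes was -0.057 and -0.066 on arrays 1 and 3, where the mutant carried Cy5, against 0.017 and 0.023 on arrays 2 and 4. The small TIM genes had a median dye term of -0.15. Tomm20, with a dye term of 0.057, and Tomm34, with one of 0.0004, were among the genes with a larger genotype term.

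**Figure D4:**
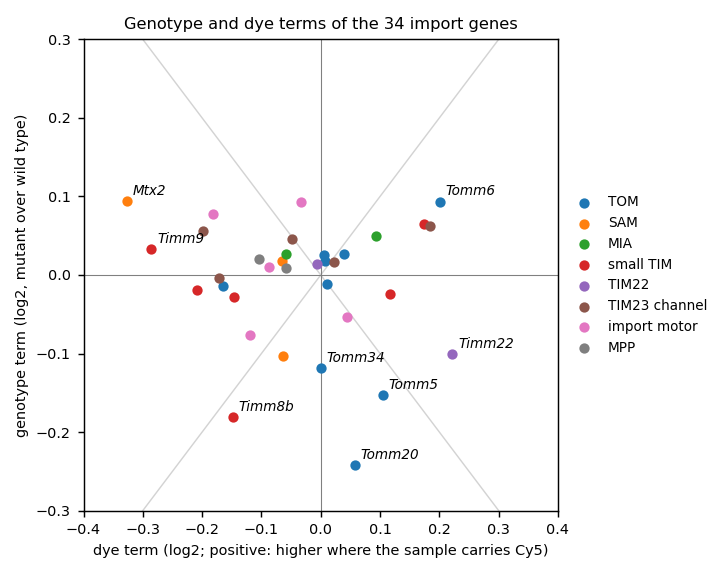
Genotype term (log2 mutant over wild type, vertical axis) against dye term (log2 Cy5 over Cy3, horizontal axis) for each of the 34 import genes, coloured by role, with grey diagonals where both are of equal size. Tomm20 lies lowest, at -0.24, and Mtx2 farthest left, at -0.33.

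Repeat probes showed how far 1 probe stands for a gene. Of 13 import genes with a second probe that passed, 9 had fitted ratios of the same sign from both. The probes of Tomm20 (-0.24 and -0.18) and Tomm5 (-0.15 and -0.12) lay close. Those of Grpel1 (-0.053 and 0.19), Grpel2 (0.093 and -0.034), Timm10 (0.065 and -0.0021) and Timm50 (0.016 and -0.082) had opposite signs. The second probes of Grpel1 and Grpel2 were dim, though well above background in all 8 samples. Their mean levels were 7.38 and 7.42, against 13.41 and 8.33 for the probes used. The second probe of Dnajc19 is listed for another transcript of the gene, and its ratios of -0.14, -1.58, 0.66 and -0.64 on arrays 1 to 4 spread far more than those of the first. The smallest adjusted p among import gene probes, in a limma fit over all probes, was 0.727.

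**Figure D5:**
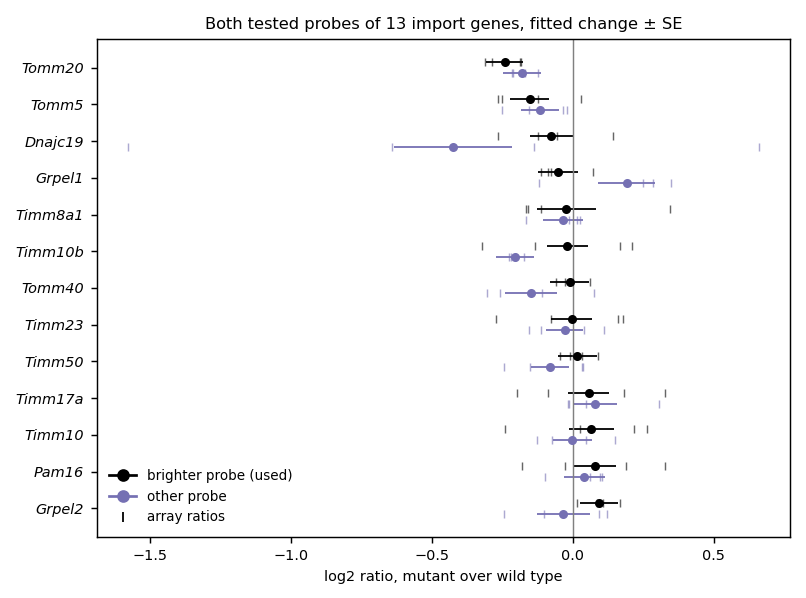
Log2 ratio of mutant over wild type (horizontal axis) from both probes of the 13 import genes with a second probe, 1 gene per row. Points are fitted values with SE bars, black for the probe used and violet for the other, and ticks are the 4 arrays: Tomm20 and Tomm5 are negative with both probes, and the second Dnajc19 probe, at -0.42, has the widest spread.

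The genotype difference in males and in females was compared by a sex term. No import gene passed it at an adjusted p under 0.05 in limma, against 3.89% of all genes, and 0 had an unadjusted p under 0.05, against 12.7% of all genes. The smallest adjusted p was 0.573, for Timm8a1, at -0.16 in males and 0.12 in females. Tomm20 was at -0.25 in males and -0.24 in females, a difference of -0.014 (SE 0.14). The sex fit had 1 residual degree of freedom, and its count over all genes, 445, was 0 with no dye term, 136 with the scanner's own ratio and 97 with the authors' value table, with 0 import genes called in each. Median ratios of the import genes were -0.016 in males and -0.011 in females.

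A second list held 30 genes around the import machinery, among them chaperones, outer membrane porins and proteases of the inner membrane, of which 29 were tested. None passed the limma test, 16 were positive and 13 negative, and the median was 0.0088. Of the 29, 1 had an unadjusted p under 0.05 in limma, beside 5.87% of all genes. This was Hscb, a co-chaperone of iron-sulphur cluster assembly, with ratios of -0.31, -0.61, -0.82 and -0.42 on arrays 1 to 4. It was negative on all arrays and fitted at -0.54 (SE 0.11, limma adjusted p = 0.707). Hscb lies within 20 Mb of Pus1 on chromosome 5, while Grpel1, Pmpcb and Tomm7, the import genes on that chromosome, do not, and the part of flanking sequence carried with the mutant allele was not tested. Timmdc1, an assembly factor of respiratory complex I, was fitted at -0.22 (SE 0.16), and Agk, which besides its lipid kinase activity belongs to TIM22 in human cells, at -0.061 (SE 0.071). Timmdc1 was at -0.57 in males and 0.12 in females, and its sex term had a limma adjusted p of 0.0482. It was the 1 gene of the 29 called by the sex term, beside 3.89% of all genes. That call was lost with no dye term (adjusted p = 0.9995), with median centring (0.434), with the scanner's ratio (0.168), with the value table (0.149) and with no filter on dim probes (0.0802). On the positive side, Mtx3, another metaxin, was at 0.17 (SE 0.11), with a negative ratio on array 4 (-0.24). Hspa9, the Hsp70 of the motor, was at 0.091 (SE 0.066), and Vdac1, a porin, at 0.11 (SE 0.078). Ratios on arrays 1 to 4 were -0.14, 0.29, -0.12 and 0.33 for Hspa9 and 0.68, -0.32, 0.67 and -0.60 for Vdac1. Hspa9 and Vdac1 thus changed sign with the dye. Genes of mitochondrial mass such as Cs and Sdha, a list that also holds Vdac1, had a median of -0.016, with 3 of 6 positive. Their medians on arrays 1 to 4 were 0.12, -0.31, 0.21 and -0.10, positive where the mutant carried Cy5 and negative where it carried Cy3.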

How the data were processed

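RNA of 8 muscle samples was measured on 4 arrays. Spot and local background medians in the deposited scanner files are raw linear intensity, per the file headers, extracted with Agilent Feature Extraction 10.7.3.1, per the submitters' processing notes. Their own ratio is log10 of processed Cy5 over Cy3, per the file headers, and flags of 0 or 1 give, per spot, whether it is well above background, saturated or outlying. The value table that the authors deposited is in log2 units: mutant minus wild type in it followed the scanner's ratio at r = 0.997, 0.991, 0.997 and 0.998 on arrays 1 to 4 (slopes 1.02, 1.04, 0.961 and 0.962), which also gave its direction. Each row is centred on its median (largest row median 9.55e-07). Its column medians were -0.0016, 0.0067, 0.0045 and 0.019 for mutants 1 to 4 and -0.035, -0.062, 0.013 and 0.0036 for wild types 1 to 4. How it was made is not given in the sources used here.

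Intensity was background-corrected by normexp (offset 50), normalized by loess within arrays (weight 0 for controls and outliers), and expressed as mutant over wild type; levels per sample were then made comparable with Aquantile. The 62976 spots per array hold 55681 probes other than controls, of which 27656 matched 1 gene name by accession in the RefSeq table of GRCm38.p6; the file headers name build mm9, so no array coordinates are given. Probes needed at least 50% of their spots well above background in all 4 samples of a genotype (21146 probes kept, after 6 without a value on an array were left out), and the brightest probe stood for a gene. The fit used limma 3.58.1 in R 4.3.3 (lmFit, eBayes), with log2 ratios as the response, a dye term for each probe, 2 residual and 3.22 prior degrees of freedom, 2-sided, with Benjamini-Hochberg adjustment over 11453 genes and a threshold of 0.05. The sex term left 1 residual degree of freedom. Scripts were tested on simulated data. Precision is limited by the number of arrays.

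The array pairs the samples, by the shared array and the labels' individual number; within pairs 1 to 4, the samples' deviations from their genotype's mean had correlations of 0.38, 0.25, 0.12 and 0.50. The genes and all lists were chosen with earlier results of these data known. Every tested import gene is named; levels per sample are given for the 12 of smallest p, the 4 of brightest probe and the central subunit of each step, and of the second list the 3 of smallest p in each direction. The second probes were described after their values were seen. Alternatives covered the background correction, normalization, dim-probe filter, probe choice, dye term, replicate block, value table, sexes and each replicate left out.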

Additional observations from a re-analysis of the deposited data

Results flagged for a closer look

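In 5 of the 68 groups of 4 levels examined, 1 sample lay far from the other 3 by Dixon's criterion, which chance alone meets in about 1 group in 20. Gfer was at 10.77 in mutant 4, with the nearest mutant at 10.35. Timm13 was at 14.3 in mutant 4, with the nearest mutant at 14.02, and at 13.88 in wild type 2, with the nearest wild type at 14.18. Timm8b was at 14.68 in wild type 2, with the nearest wild type at 15.06. Timm23 was at 15.21 in mutant 2, with the nearest mutant at 15.07.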

How the results depend on the processing

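No import gene passed the limma test under any of 15 alternatives (0 called in each), and none of the other pathway list did. The median of the import genes, 0.015, was 0.047 with median centring, 0.030 with the scanner's own ratio, 0.052 with the authors' value table, and -0.006 to 0.013 with 1 replicate left out, within the SD of 0.047 over arrays. Over all genes, those settings moved the median of 0.012 to 0.032, 0.044 and 0.063. Tomm20 ranged from -0.25 to -0.20 (adjusted p 0.483 to 1.00); it alone had an unadjusted p under 0.05 under 8 alternatives, while 7 left no import gene there: median centring, the value table, each sex alone, and leaving out replicate 1, 2 or 3. 13 of the 34 genes kept 1 sign throughout and 21 turned under at least 1 alternative, and 25 turned or moved by over 1.5 times with 1 replicate left out. The TOM median of -0.011 was 0.021 with median centring, 0.013 with the scanner's ratio, 0.032 with the value table and 0.012 in males, and -0.041 without replicate 1 and -0.038 in females. Over all genes, 2 were called, against 267 with median centring (38 higher, 229 lower). With median centring, the SE was 0.156 for Tomm20, Timm8a1 and Pus1 alike, so those p-values do not reflect a gene's own spread over arrays. The count was 1 with no dye term and 7 in female pairs alone. It was 0 with the scanner's ratio, the value table, the filter of all 8 samples, male pairs alone or any replicate left out. In that order, these settings had 782, 724, 628, 697 and 302 to 1157 genes at an unadjusted p under 0.05 in limma. With no replicate block, 3 genes were called, 0 of them import genes, with an import median of 0.015; it changed no call of an import gene. Pus1, whose fitted -1.90 is taken against a mutant signal below background, missed the threshold with the scanner's ratio (-3.87, adjusted p = 0.114), the value table (-3.83, 0.165), male pairs alone (-1.74, 0.124) and 1 replicate left out (-2.02 to -1.78). The filter of all 8 samples above background left Pus1 untested. With no filter on dim probes, the sex term called 1 import gene, Timm8a2, at -0.89 in males and -0.022 in females (limma adjusted p = 0.0403), which was well above background in no mutant. The sex term called 445 of all genes, against 136 with the scanner's ratio, 97 with the value table and 0 with no dye term (502 at an unadjusted p under 0.05 in limma). The causes were not tested. The sex term could not be fitted with a replicate left out, for want of residual degrees of freedom.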
